A study of Homo sapiens with 9 samples.

Results

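The p53 protein acts inside a small circle of relatives and feedback genes, and 8 of these genes were followed in A375 cells, a human melanoma cell line that carries a BRAF mutation. They were taken by name from a table of 26475 gene symbols, and all 8 were in it. TP63 and TP73 encode the relatives of p53, MDM2, MDM4 and RCHY1 encode ring finger proteins that restrain it, PPM1D encodes a phosphatase, CCNG1 a cyclin and TP53INP1 a nuclear stress protein. A375 cells were grown for 24 h in DMSO (the solvent control), in 5 µM TP-472 or in 10 µM TP-472, with 3 libraries in each group, which the series describes as biological replicates of this 1 cell line. TP-472 blocks the bromodomains of BRD9 and BRD7, proteins that read acetylated chromatin, and no group carried any other agent or genetic change that the labels name.

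The p53 protein is a transcription factor that is made continuously and destroyed quickly. MDM2 tags it with ubiquitin and sends it to the proteasome, and MDM4, a close relative of MDM2, covers its activation domain and pairs with MDM2. Because p53 switches on the MDM2 gene, the pair forms a negative feedback loop. PPM1D, also known as WIP1, removes phosphates that stress kinases place on p53, and its gene is a p53 target as well. CCNG1 recruits a phosphatase that acts on MDM2, RCHY1 (PIRH2) is another ubiquitin ligase for p53, and TP53INP1 helps a kinase to phosphorylate p53. The genes TP63 and TP73 are read from several start sites, which give proteins with or without the activation domain. p63 is best known for the basal layer of epithelia, and p73 for neural and ciliated cells.

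The MDM2 and TP73 genes each have an inner start site, and the 250 bases before these starts are shown. They held the closest matches to a p53 site among the 7 genes searched, which leave out TP53INP1. Both sequences are RefSeq promoter windows on GRCh38.p14, plus strand, and the capitals mark matches to the p53 half-site placed in tandem without a spacer (20 bases).
MDM2, chr12:68808767-68809016: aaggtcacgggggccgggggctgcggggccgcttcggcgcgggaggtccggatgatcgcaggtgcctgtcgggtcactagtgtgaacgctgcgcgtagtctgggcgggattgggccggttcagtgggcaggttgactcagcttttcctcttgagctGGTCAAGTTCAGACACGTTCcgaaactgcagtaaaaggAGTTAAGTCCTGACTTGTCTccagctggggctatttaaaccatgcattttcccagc
TP73, chr1:3690422-3690671: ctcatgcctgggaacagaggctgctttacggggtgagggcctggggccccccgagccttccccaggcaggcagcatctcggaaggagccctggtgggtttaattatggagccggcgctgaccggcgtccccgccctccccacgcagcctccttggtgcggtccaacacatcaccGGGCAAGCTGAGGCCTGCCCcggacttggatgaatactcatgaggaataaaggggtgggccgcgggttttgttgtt
In the MDM2 window the first marked match (chr12:68808923-68808942) differed from the motif at 2 bases and ended 74 bases before the start, and the second (chr12:68808961-68808980) differed at 3 bases and ended 36 bases before it. In the TP73 window the marked match (chr1:3690596-3690615) differed at 2 bases and ended 56 bases before the start. A match with at most 2 differing bases stood in 197 of 35116 windows of this length (0.561%), and a match with at most 3 in 1532 of them (4.36%). RefSeq windows of 7 of the 8 genes were searched, 16 windows in all, and no window of TP53INP1 was searched. The closest match in the other searched genes differed at 4 bases for PPM1D and TP63, at 5 for MDM4 and RCHY1 and at 6 for CCNG1. The outer MDM2 windows differed at 5 bases. A match describes the letters only, and because counts were summed over each gene, they do not show which start site was used.

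Depth ranged from 42483091 to 51298130 counts per library, and 16417 symbols passed the filter on low counts and entered the quasi-likelihood test of edgeR. A gene was called when its fold change was at least 1.5 and its Benjamini-Hochberg adjusted p over all tested genes was under 0.05. Values are given as CPM, a gene's count relative to the TMM-scaled total of its library, with the libraries in the order of replicates 1, 2 and 3, and log2 fold changes carry a standard error (SE). The library of 10 µM replicate 1 stood apart, with a root mean square deviation from its group of 0.640 on the log2 scale, against 0.472 and 0.485 for the other 10 µM libraries and 0.251 to 0.408 elsewhere. A trend with the length and GC content of transcripts held 10.3% of the variance of that deviation across genes, with 4.48% and 5.16% for 10 µM replicates 2 and 3, and 0.459% or less for each library of the other groups. Of 8 melanocyte lineage markers, SOX10 (mean 417 CPM in DMSO) and MITF (31.9 CPM) were expressed, with S100B at 7.09 CPM and PMEL at 1.48 CPM. MLANA was at 0.173 CPM, TYRP1 at 0.331 CPM, and TYR and DCT had no counts in DMSO. The summed level of the 8 markers, most of it SOX10, was 446 to 465 CPM in DMSO. In the TP-472 groups it was 447 to 459 CPM (5 µM) and 399 to 447 CPM (10 µM).

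MDM2 and PPM1D, 2 genes that p53 itself switches on, rose at both doses, and TP53INP1 rose with them. At 5 µM TP-472, 3 of the 7 tested genes were called up and 0 down, where 2.14% of all tested genes were called up and 2.72% down. DESeq2 and limma-voom gave the same counts at 5 µM. At 10 µM, 3 were called up (MDM2, PPM1D, TP53INP1) and 1 down (TP73), where 8.57% of all tested genes were called up and 10.5% down. The 7 genes had a median log2 fold change of 0.17 at 5 µM and of 0.35 at 10 µM, beside 0.01 over all tested genes at either dose. An adjusted p under 0.05, whatever the fold, was reached by 4 of the 7 at 5 µM (10.2% of all tested genes), 5 at 10 µM (34.3%) and 3 between the doses (8.40%). TP63 did not pass the filter, and MDM4, CCNG1 and RCHY1 were called at neither dose. Since the RNA came from whole cultures, fewer cells of a type and less RNA per cell cannot be told apart.

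**Figure D1:**
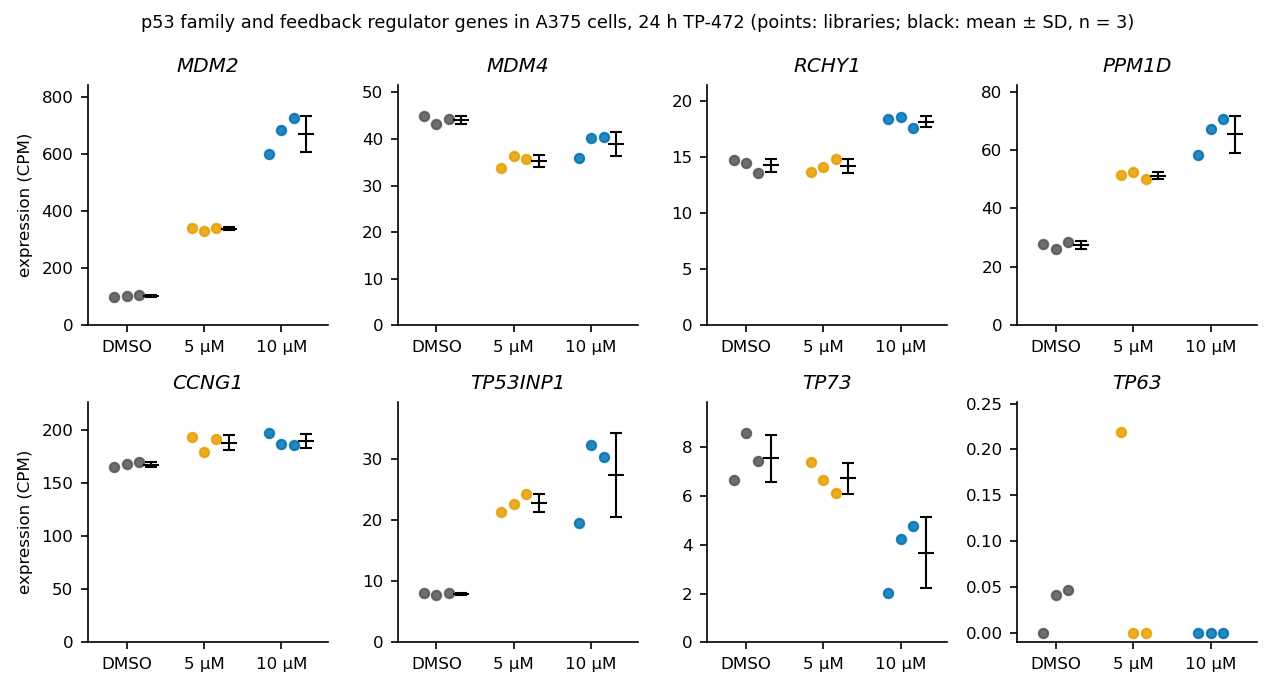
Expression of the 8 genes in each library, in CPM on a linear axis that starts at 0 (just below 0 for TP63), for DMSO (grey), 5 µM (orange) and 10 µM TP-472 (blue). Points are libraries and black marks are the mean ± SD of 3 libraries (not drawn for TP63); MDM2 lies at 100 to 106 CPM in DMSO against 600 to 726 CPM at 10 µM, and the TP53INP1 and TP73 values of 10 µM replicate 1 lie below the other 10 µM libraries.

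MDM2 lies on the plus strand of chromosome 12 (GRCh38, chr12:68808176-68850686). Its level was 100, 101 and 106 CPM in DMSO, 342, 332 and 342 CPM at 5 µM and 600, 682 and 726 CPM at 10 µM. The 3 groups did not overlap, and each dose stood above the one before it. The rise was 3.31-fold at 5 µM (log2 fold change 1.73, SE 0.08, adjusted p = 3.62e-06) and 6.55-fold at 10 µM (log2 2.71, SE 0.08, adjusted p = 4.81e-08). MDM2 was also the only one of the 7 tested genes called between the doses, 0.98 higher on the log2 scale at 10 µM than at 5 µM (SE 0.08, adjusted p = 0.000115), a comparison in which 1.42% of all tested genes were called up and 2.59% down. Between the doses 233 genes were called higher and 425 lower over the whole table, and 294 and 343 with the trend with length and GC content removed. By size, the rise ranked 221 among the 16417 tested genes at 5 µM and 170 at 10 µM. Genes that share exonic bases with MDM2 are AC025423.4 on the opposite strand (5.91% of its exonic length), AC025423.2, a pseudogene on the same strand (3.31%), and CPM on the opposite strand (1.00%), and the strand setting of the counting was not known.

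MDM4, the partner of MDM2 (chr1:204516379-204558120, plus strand), was called at neither dose. Its level was 44.9, 43.3 and 44.2 CPM in DMSO, 33.8, 36.3 and 35.7 CPM at 5 µM and 35.9, 40.2 and 40.5 CPM at 10 µM. Every TP-472 library lay below every DMSO library, and the doses overlapped. The log2 fold change at 5 µM was -0.32 (SE 0.08, adjusted p = 0.0264), under the fold limit, and the adjusted p spanned 0.000179 to 0.122 over the alternatives tried. At 10 µM it was -0.18 (SE 0.08, adjusted p = 0.0934), and 0.05 (adjusted p = 0.741) with the trend with length and GC content removed.

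Because MDM2 and MDM4 are read in the same library, their ratio needs no scaling to library size. There were 2.23, 2.32 and 2.40 MDM2 counts per MDM4 count in DMSO, 10.1, 9.13 and 9.60 at 5 µM and 16.7, 17.0 and 17.9 at 10 µM. The groups stood well apart. On the log2 scale the ratio averaged 1.21 ± 0.05 (SD, n = 3) in DMSO, 3.26 ± 0.08 at 5 µM and 4.10 ± 0.05 at 10 µM. The difference from DMSO was 2.05 at 5 µM and 2.89 at 10 µM, each with p = 0.1 in a two-sided exact permutation test, the smallest p that 3 against 3 libraries can give. Over both doses (6 against 3 libraries) it was 2.47 (exact permutation p = 0.0238, again the smallest p that such a test can give). Adjusted over these 3 tests by Benjamini-Hochberg, p was 0.0714 for both doses and 0.1 for each dose alone. Counts rather than levels per length enter this ratio, so its size does not say how many transcripts of MDM2 there were for each of MDM4.

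**Figure D2:**
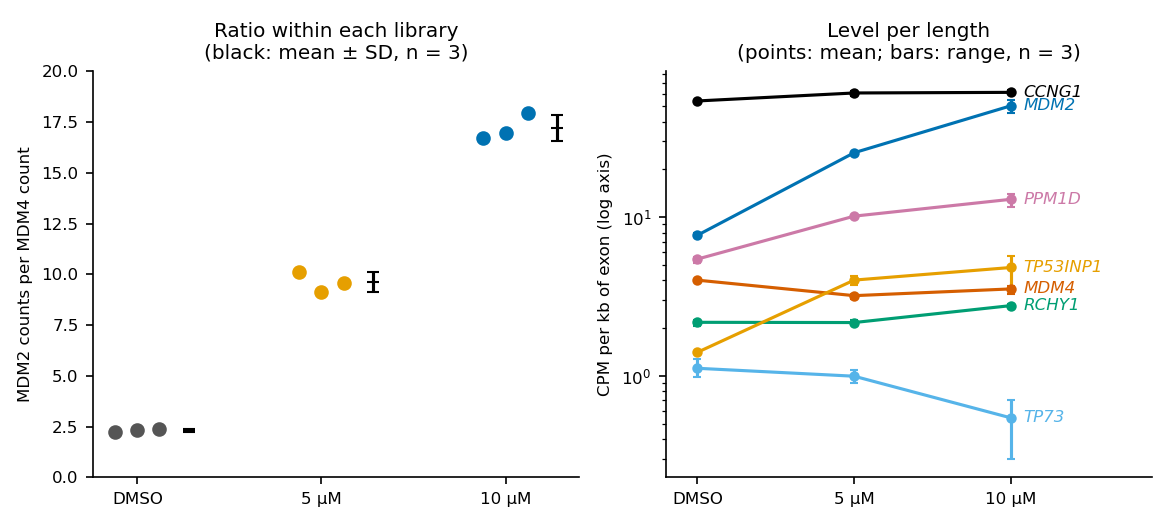
Left, MDM2 counts per MDM4 count in each library, with the mean ± SD of 3 libraries in black; right, the mean level of 7 genes per kb of exon in each group on a log axis, with bars from the lowest to the highest library. The ratio lies at 2.23 to 2.40 in DMSO and at 16.7 to 17.9 at 10 µM, and on the right MDM2 moves up towards CCNG1 while TP73 moves down; TP63, near 0, is not drawn.

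RCHY1 (chr4:75479037-75514764, minus strand), the third ring finger gene, was at 14.7, 14.5 and 13.6 CPM in DMSO, 13.7, 14.2 and 14.8 CPM at 5 µM and 18.4, 18.6 and 17.6 CPM at 10 µM. DMSO and 5 µM overlapped, and the 10 µM libraries lay above both. At 5 µM the log2 fold change was -0.01 (adjusted p = 0.982), with a sign that turned under upper-quartile scaling (0.01) and with the length and GC trend removed (0.02). At 10 µM it was 0.35 (SE 0.08, adjusted p = 0.0102), under the fold limit, and 0.48 (adjusted p = 0.00604) with that trend removed. RCHY1 shares 8.33% of its exonic length with THAP6 on the opposite strand, whose own log2 fold change at 10 µM was 0.33 (adjusted p = 0.0537).

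PPM1D (chr17:60600183-60666280, plus strand), the phosphatase gene, was higher in every TP-472 library than in DMSO. It was at 28.0, 25.9 and 28.5 CPM in DMSO, 51.4, 52.3 and 49.9 CPM at 5 µM and 58.4, 67.1 and 70.6 CPM at 10 µM. No group overlapped another. The rise was 1.87-fold at 5 µM (log2 0.90, SE 0.09, adjusted p = 0.000264) and 2.38-fold at 10 µM (log2 1.25, SE 0.09, adjusted p = 6.16e-06). From 5 µM to 10 µM the difference was 0.35 on the log2 scale (SE 0.09, adjusted p = 0.0347), which is under the fold limit. The adjusted p of this difference spanned 7.31e-05 to 0.141 over the alternatives tried.

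TP53INP1 (chr8:94925972-94949411, minus strand) was at 8.01, 7.82 and 8.13 CPM in DMSO, 21.3, 22.7 and 24.3 CPM at 5 µM and 19.5, 32.3 and 30.3 CPM at 10 µM. All TP-472 libraries were above DMSO, but 10 µM replicate 1 was below all 3 libraries at 5 µM while the other 10 µM libraries were above them. The rise was 2.85-fold at 5 µM (log2 1.51, SE 0.17, adjusted p = 0.000561) and 3.43-fold at 10 µM (log2 1.78, SE 0.17, adjusted p = 4.71e-05). The doses differed by 0.26 (95% interval -0.10 to 0.63, adjusted p = 0.349), and without 10 µM replicate 1 by 0.46 (adjusted p = 0.000682), still under the fold limit.

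CCNG1 (chr5:163437569-163446151, plus strand), often listed among p53 targets, was at 165, 168 and 169 CPM in DMSO, 193, 179 and 191 CPM at 5 µM and 197, 186 and 185 CPM at 10 µM. The TP-472 libraries lay above the DMSO libraries by a narrow margin, and the doses overlapped. The log2 fold change came to 0.17 at 5 µM (SE 0.06, adjusted p = 0.138) and to 0.18 at 10 µM (SE 0.06, adjusted p = 0.0534). The 95% intervals, 0.02 to 0.31 and 0.04 to 0.32, ended below the fold limit, which is 0.58 on this scale.

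**Figure D3:**
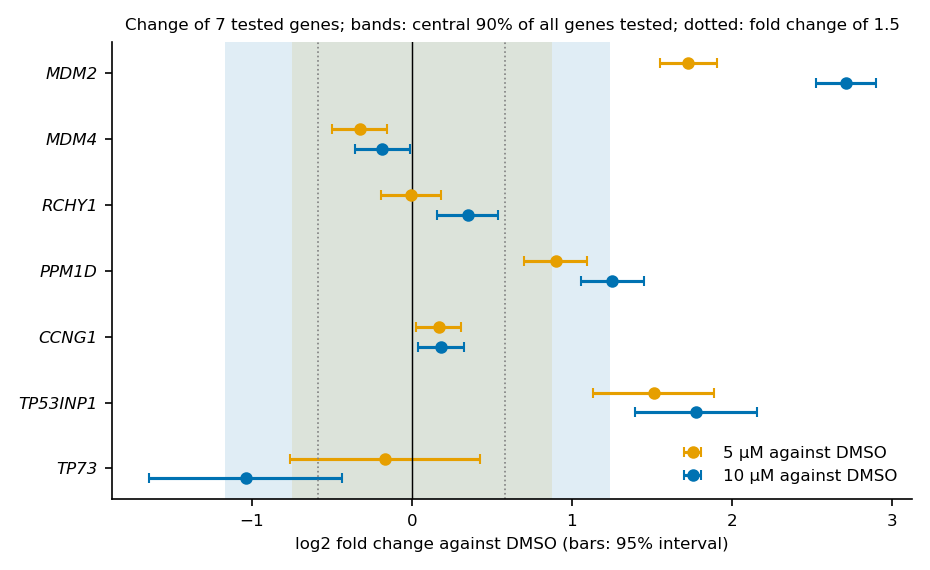
Log2 fold change against DMSO of the 7 tested genes at 5 µM (orange) and 10 µM (blue), with 95% intervals; the shaded bands hold the central 90% of all 16417 tested genes at each dose and the dotted lines mark a fold change of 1.5. MDM2 (1.73 and 2.71) and TP53INP1 (1.51 and 1.78) lie well beyond the bands at both doses, PPM1D (0.90 and 1.25) lies just beyond them, and TP73 at 10 µM (-1.04) has the widest interval.

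The relatives of p53 had the lowest levels per kb of exon of the 8 genes. TP73 (chr1:3652520-3736201, plus strand) was at 6.64, 8.58 and 7.42 CPM in DMSO, 7.38, 6.66 and 6.14 CPM at 5 µM and 2.02, 4.23 and 4.77 CPM at 10 µM. DMSO and 5 µM overlapped, all 10 µM libraries were lower, and 10 µM replicate 1 was the lowest. At 5 µM the log2 fold change was -0.17 (SE 0.27, adjusted p = 0.782). At 10 µM TP73 fell by 1.04 on the log2 scale (SE 0.27, 95% interval -1.64 to -0.43, adjusted p = 0.0148). Without DMSO replicate 2, the highest library, the call was lost (-0.94, adjusted p = 0.0598), and without 10 µM replicate 1 it held at -0.75 (adjusted p = 0.00106). With the length and GC trend removed TP73, whose longest transcript has 61.0% GC, was at -0.79 (adjusted p = 0.0265). TP73-AS1 on the opposite strand shares 9.36% of the exonic length of TP73, and at 12.4, 12.0 and 13.1 CPM on average in DMSO, 5 µM and 10 µM it was not called (log2 fold change 0.09 at 10 µM, adjusted p = 0.601). Between the doses TP73 differed by -0.87 (SE 0.27, adjusted p = 0.0798), which DESeq2 called (-0.86, adjusted p = 0.0242), as did the fit without 10 µM replicate 3 (-1.10, adjusted p = 0.0483). The difference was under the fold limit without 10 µM replicate 1 (-0.58, adjusted p = 0.0144), and a fit of only these groups gave -0.86 (adjusted p = 0.222).

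TP63 (chr3:189631416-189897279, plus strand) was close to absent. It had 0, 2 and 2 counts in DMSO, 10, 0 and 0 counts at 5 µM and no counts in any 10 µM library. A count of 0 allows up to 3 counts, which is 0.0585 to 0.0706 CPM at these depths, and intervals of this kind cover counting error only. The 10 counts stood in 5 µM replicate 1 alone, and no comparison between groups was made.

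Read per kb of exon, which puts genes of different length on 1 scale, CCNG1 led in DMSO with 54.0 CPM per kb, followed by MDM2 at 7.69, PPM1D at 5.44, MDM4 at 4.01, RCHY1 at 2.17, TP53INP1 at 1.41, TP73 at 1.12 and TP63 at 0.00395. No neighbours in this order overlapped in their libraries. At 10 µM the order was CCNG1 at 61.2 CPM per kb, MDM2 at 50.4, PPM1D at 13.0, TP53INP1 at 4.82, MDM4 at 3.53, RCHY1 at 2.77, TP73 at 0.543 and TP63 at 0. TP53INP1 moved from place 6 in DMSO to place 4 at both doses. At 5 µM its libraries (3.76 to 4.28 CPM per kb) lay above those of MDM4 (3.07 to 3.30), and at 10 µM they overlapped those of MDM4. Divided by the longest transcript instead of all exons, TP53INP1 and TP73 change places in DMSO, and MDM4 and RCHY1 at 10 µM.

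Measured on the log2 scale, 63.7% of the 10 µM change of MDM2 was present at 5 µM, as were 71.8% of that of PPM1D and 85.1% of that of TP53INP1. Both comparisons share the DMSO libraries, and the differences between these shares were not tested. All 7 tested genes had 10 µM libraries that did not overlap DMSO, 5 of 7 did so at 5 µM and 4 of 7 between the doses. Over all tested genes the shares were 49.3%, 48.7% and 28.3%.

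The wider pathway was read through lists of genes by role. Of 24 direct p53 targets, a list chosen with earlier results of these data known, 23 were tested. At each dose 22 were called up and none down. Over all tested genes, 2.14% were called up and 2.72% down at 5 µM, and 8.57% and 10.5% at 10 µM. Over the list the median log2 fold change was 1.12 and 1.64 at 5 µM and 10 µM, beside 0.01 over all tested genes at either dose. GADD45A, a growth arrest and repair gene, was at 33.3, 99.4 and 246.9 CPM on average in DMSO, 5 µM and 10 µM and rose by 2.89 on the log2 scale at 10 µM (SE 0.11, adjusted p = 1.75e-07). CDKN1A, the inhibitor of cyclin-dependent kinases called p21, rose by 2.30 (SE 0.10, adjusted p = 3.12e-07), and BTG2, an antiproliferative gene, by 2.26 (SE 0.07, adjusted p = 5.00e-08). The rise of MDM2 (2.71) lies among these 3, whereas PPM1D (1.25) lies below the list median. Between the doses 5 of the 23 were called up, where 1.42% of all tested genes were called up. GADD45A, PLK3, SESN2, TP53I3 and BBC3 are those 5, named after their values were seen. Without 10 µM replicate 1 the counts were 22 at each dose and 4 between doses. Over the whole table that fit called 575 genes up at 5 µM, 1368 at 10 µM and 320 between the doses.

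Other proteins that act on p53 stability showed fewer calls than the direct targets. Over all tested genes, 2.14% were called up and 2.72% down at 5 µM, and 8.57% and 10.5% at 10 µM. None of 18 other ubiquitin ligases and deubiquitinases of p53 was called at either dose by edgeR, DESeq2 or limma-voom. Whatever the fold, edgeR gave 0 and 2 of the 18 an adjusted p under 0.05 at 5 µM and 10 µM. Over all tested genes these shares were 10.2% and 34.3%. The median log2 fold changes of the 18 were -0.02 and -0.07. Of 11 genes whose products bind and inhibit MDM2, RPS27L, a ribosomal protein paralog that is in the p53 target list too, rose by 1.80 at 10 µM (SE 0.18, adjusted p = 5.45e-05), and PML, which builds nuclear bodies, fell by 0.66 (SE 0.08, adjusted p = 0.000243). The call of PML was lost with the length and GC trend removed (-0.44). No gene of 16 cofactors of p53 was called at either dose by any of these 3 tools. Whatever the fold, 0 and 5 of the 16 had an adjusted p under 0.05 in edgeR, where 10.2% and 34.3% of all tested genes did. Without 10 µM replicate 1, 1 of the cofactors was called up and 1 down at 10 µM, where that fit called 1368 genes up and 1841 down over the whole table.

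Kinases that phosphorylate p53 or MDM2 had calls at 10 µM only, all of them down, and fewer without 10 µM replicate 1. Of 14, none was called at 5 µM by the 3 tools. Whatever the fold, 1 of them had an adjusted p under 0.05 in edgeR at 5 µM, where 10.2% of all tested genes did. Of all tested genes, 2.14% were called up and 2.72% down at that dose. At 10 µM, 4 of the 14 were called down (28.6%) and 0 up, where 10.5% of all tested genes were called down and 8.57% up. The list median at 10 µM was -0.37 against 0.01 over all tested genes. HIPK2 fell from 127.9 to 67.8 CPM (log2 -0.92, SE 0.20, adjusted p = 0.00540), and CHEK2, a checkpoint kinase, from 12.6 to 7.28 CPM (-0.79, SE 0.13, adjusted p = 0.00153). PRKDC, the DNA-dependent protein kinase, was at 758 CPM in DMSO and 440 ± 179 CPM (SD, n = 3) at 10 µM (-0.79, SE 0.25, adjusted p = 0.0363). The 4th was CHEK1, named after its values were seen (-0.61, SE 0.08, adjusted p = 0.000427). MAPK8, also named after its values were seen, rose by 0.30 at 10 µM (SE 0.10, adjusted p = 0.0362), under the fold limit. Without 10 µM replicate 1 only HIPK2 (-0.67) and CHEK2 (-0.81) of these 14 were called, PRKDC was at -0.48, under the fold limit, and the list median was -0.16. That fit called 1841 genes down and 1368 up over the whole table. With the length and GC trend removed 3 of 14 were called down, where that fit called 1413 genes down and 1456 up over the whole table.

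Among 9 paralogs of the feedback regulators, CCNG2, the close relative of CCNG1, fell at both doses while CCNG1 was not called. CCNG2 averaged 43.3 CPM in DMSO and 25.7 and 17.4 CPM at 5 µM and 10 µM, a log2 fold change of -0.75 (SE 0.07, adjusted p = 0.000280) and -1.31 (SE 0.08, adjusted p = 1.73e-06). PPM1H, a phosphatase of the PPM1D family, rose by 0.59 at 5 µM (adjusted p = 0.0430) and by 0.74 at 10 µM (SE 0.16, adjusted p = 0.00537). Its call at 5 µM, close to the fold limit, was lost under limma-voom. The other 7 paralogs were not called. Of all tested genes, 2.14% were called up and 2.72% down at 5 µM, and 8.57% and 10.5% at 10 µM. The difference between CCNG1 and CCNG2 was not tested.

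**Figure D4:**
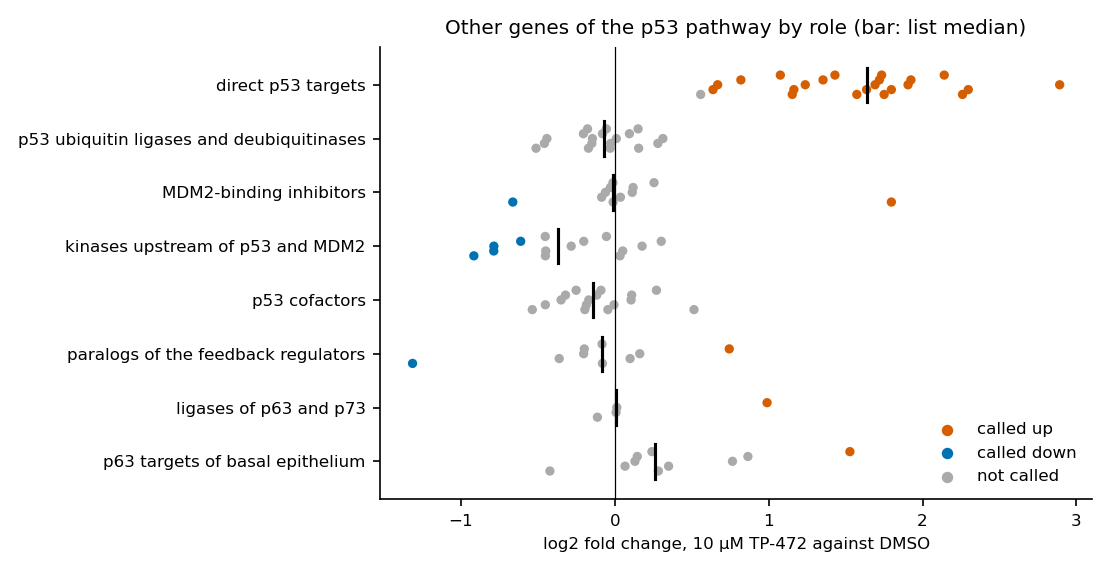
Log2 fold change at 10 µM TP-472 against DMSO of the tested genes of 8 lists, 1 point a gene, coloured by call (orange up, blue down, grey not called), with the list median as a black bar. The direct p53 targets have 22 of 23 genes called up, the kinases 4 of 14 called down, and the ubiquitin ligases and cofactors no calls. Over all tested genes 8.57% were called up and 10.5% down.

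Genes tied to p63 and p73 had few calls, in short lists. Of all tested genes, 2.14% were called up and 2.72% down at 5 µM, and 8.57% and 10.5% at 10 µM. Between the doses the shares were 1.42% and 2.59%. Of 4 ubiquitin ligases that act on p63 or p73, FBXW7 rose by 0.99 at 10 µM (SE 0.11, adjusted p = 0.000104), from 13.3 to 26.5 CPM. Of 12 p63 targets of basal epithelium, 10 were tested, with a median log2 fold change of 0.31 at 5 µM and 0.26 at 10 µM, the latter -0.06 without 10 µM replicate 1. COL17A1 was called up at 5 µM (0.62, adjusted p = 0.0347) and KRT15 down from 5 µM to 10 µM (-0.74, adjusted p = 0.0329), both named after their values were seen. The KRT15 call was lost with the length and GC trend removed, where 0 of the 10 were called down between the doses. The basal epithelial markers, 3 of whose 5 genes were tested, summed to 23.3 to 25.2 CPM in DMSO, 27.4 to 29.2 CPM (5 µM) and 16.2 to 27.6 CPM (10 µM), with CDH1 at 0 in DMSO and at 5 µM, and their part in these values was not tested.

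Of 5 fibroblast markers, 3 were called down at 10 µM, namely COL3A1, PDGFRA and PDGFRB, where 10.5% of all tested genes were called down. The other members, DCN (log2 fold change 0.03) and LUM (-0.09), were not called at 10 µM. COL3A1 was near the floor, at 0.461 CPM in DMSO and 0.067 CPM at 10 µM, and PDGFRA was at 3.31 and 0.977 CPM. The sum of the 5 markers was 28.4 to 30.4 CPM in DMSO, with 18.1 to 20.7 CPM at 5 µM and 9.98 to 14.6 CPM at 10 µM. PDGFRB, at 22.8 CPM in DMSO, made most of this sum. The 6 leukocyte and endothelial markers summed to at most 3.84 CPM in any library, with CD3E at 0 in all of them. The part of these markers in the changes of MDM2, PPM1D, TP53INP1 and TP73 was not tested.

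The genes nearest in pattern to the members called were found by the smallest root mean square difference of log2 CPM over the 9 libraries, each gene centred on its DMSO mean, among 13678 genes. MDM2 lay nearest to KIAA1324 (0.185) and CALB1 (0.207), both low in DMSO at 1.02 and 6.95 CPM, with GADD45A the third (0.216). PPM1D lay nearest to PTP4A1 (0.0902), SRGAP3 (0.119) and MXD1 (0.129). TP53INP1 lay nearest to FAM198B (0.109) and EDA2R (0.165), a receptor gene of the p53 target list, with CYFIP2 the third (0.195). TP73 lay nearest to HSPG2 (0.0987), which encodes perlecan, and LRP1 (0.103), a large endocytic receptor, with BRCA1 the third (0.104). HSPG2 and LRP1 fell by 0.95 and 1.00 on the log2 scale at 10 µM, and by 0.65 and 0.72 without 10 µM replicate 1. With the length and GC trend removed they fell by 0.61 and 0.73. BRCA1 fell by 1.01 at 10 µM and was not read under these alternatives.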

How the data were processed

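RNA from A375 cells treated for 24 h with DMSO, 5 µM or 10 µM TP-472 was sequenced in 3 strand-specific libraries per group. For all 9 libraries the deposited values are unscaled expected counts by gene symbol, and the submitters' processing notes name Bowtie2 2.1.0, RSEM 1.2.15 and hg38. The annotation and the strand setting are not given in the sources here. The protocol names oligo-dT beads and the series design names depletion of ribosomal RNA, and genes of ribosomal RNA took 8.20% to 19.9% of counts. Between 10.6% and 13.8% of values per library were not whole, among them those of TP73 and MDM4.

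Counts were rounded and tested with edgeR 4.0.16 in R 4.3.3 (TMM factors, filterByExpr, quasi-likelihood F test, 1 fit of the 3 groups, Benjamini-Hochberg adjustment over 16417 genes). The SE was taken as the absolute log2 fold change over the root of F. The MDM2 to MDM4 ratio was tested by exact permutation of libraries with scipy 1.17.1. Tests were run on simulated data first. Coordinates and exons come from GENCODE release 29 (GRCh38), and promoter windows from RefSeq (GRCh38.p14). The p53 half-site was searched in tandem on the given strand, its palindrome covering the other strand. Of the lists, COP1 and KMT5A were read under the symbols RFWD2 and SETD8.

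The 8 genes, the lists and the marker genes were chosen with earlier results of these data known. Named genes are the 8, up to 3 rises and 3 falls per list by size at 10 µM among called genes, and the 3 nearest genes in pattern. Alternatives were DESeq2 1.42.0, limma-voom (limma 3.58.1), upper-quartile and DESeq2-type scaling factors, other filters, a replicate block, each library left out, fits of only the groups compared, no fold limit, and genes of ribosomal RNA left out. The removal, library by library, of a trend with GC content and transcript length (natural splines with 4 degrees of freedom each, on 15323 genes) was chosen after seeing the data. Equal replicate numbers showed no strong pairing of the libraries. The results for 2 genes of the lists are not reported here.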

Additional observations from a re-analysis of the deposited data

How the results depend on the processing

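MDM2, PPM1D and TP53INP1 kept their calls against DMSO at both doses under all 20 alternatives, and MDM2 kept its call between the doses. The log2 fold change of MDM2 at 10 µM spanned 2.65 to 2.95. The call of TP73 at 10 µM held under 19 of 20, with values of -1.27 to -0.75, and was lost without DMSO replicate 2, so the number of the 8 genes called down at 10 µM was 0 to 1 with a library left out. With no fold limit 1 of the 8 genes (MDM4) was called down at 5 µM and 3 (MDM2, PPM1D, RCHY1) were called up between the doses. Over the alternatives the adjusted p between the doses reached 0.141 for PPM1D and 0.139 for RCHY1. DESeq2 called 1 down (TP73) between the doses, and 0 to 1 was called down there with a library left out. The sign of RCHY1 at 5 µM turned to 0.00623 under upper-quartile factors, 0.000561 with at least 1 CPM in 3 libraries and 0.0233 with the length and GC trend removed, and to 0.0165, 0.00458 and 0.0222 without DMSO replicate 1, DMSO replicate 2 or 5 µM replicate 1, within a range of -0.0388 to 0.0222 with a library left out. MDM4 at 10 µM turned to 0.0527 with the trend removed, and CCNG1 between the doses to -0.0443 with it, to -0.0233 without 5 µM replicate 2 and to -0.0169 without 10 µM replicate 1, within -0.0233 to 0.0298 with a library left out. The cause was not tested.

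Over all genes at 5 µM, 352 were called up and 447 down, 591 and 729 in a fit of only those groups, 722 and 954 with no fold limit, and 197 to 575 and 283 to 666 with a library left out. At 10 µM, 1407 and 1730 became 2687 and 2947 with no fold limit, and 1051 to 1564 and 1472 to 1879 with a library left out. Between the doses, 233 and 425 became 101 and 165 in a fit of only those groups, 471 and 908 with no fold limit, 418 up under DESeq2, and 118 to 320 and 258 to 572 with a library left out. The MDM2 to MDM4 difference over both doses was 2.38 to 2.57 with a library left out, and without a DMSO library the smallest p possible is 0.0714. Correlations of same-numbered libraries were -0.0493 to 0.0322, which shows no strong pairing by number but cannot exclude a weak one. A fit with the replicate block called 3 of the 8 genes up and 0 down at 5 µM, 3 up and 1 down at 10 µM, and 1 up between the doses. Over all genes the replicate block called 288 up and 399 down at 5 µM, 1269 and 1736 at 10 µM, and 176 and 380 between the doses. Depth limits TP63 and, at 2.02 to 8.58 CPM, TP73 more than the other genes.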
